A study of Mus musculus with 2 samples.

Results

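The genes of glycolysis, lactate handling and the hypoxia response were taken as a list of 34 named genes and described in hindbrain of newborn mice. All 34 were found by Ensembl identifier in the gene and the transcript tables, among 43346 mouse genes and 21461 protein-coding genes of the nuclear genome. The tissue came from strain B6NTac;B6NCrl/Lap at postnatal day 0, from healthy animals, with males and females pooled. The single group holds 2 libraries of ribosomal RNA-depleted total RNA longer than 200 nt and were sequenced as stranded read pairs, with synthetic spike-in RNA added. Replicate 1 came from 15 mice and replicate 2 from a pool whose size the labels do not give. Both carry 1 donor identifier although they are called separate isolates, so the spread between them may be partly technical. No treatment, genotype or second age was compared, and with 2 libraries the smallest p of an exact sign-flip test is 0.5, so values are given with their spread and without tests.

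Glycolysis splits glucose into pyruvate in the cytosol with a small yield of ATP, and lactate dehydrogenase regenerates the NAD+ that the pathway consumes. Pyruvate enters mitochondria and is oxidised by the pyruvate dehydrogenase complex, which the PDK kinases inhibit. Under low oxygen the HIF-α subunits escape hydroxylation by the EGLN prolyl hydroxylases, pair with ARNT and raise transcription of many glycolytic enzymes, of PDK1 and of genes such as Vegfa and Bnip3. Newborn rodent brain uses ketone bodies and lactate as fuels beside glucose.

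The deposited tables held 54313140 expected counts in replicate 1 and 77142270 in replicate 2. The hindbrain markers were detected in 8 of 8 cases, with summed levels of 175 and 143 TPM in replicates 1 and 2, led by Zic1 (71.9 ± 9.31 TPM) with Atoh1 lowest (3.89 ± 0.969 TPM). Of 6 forebrain markers 0 were detected, with summed levels of 1.40 and 0.450 TPM, and Dlx5 had 0 counts. TPM divides counts by effective length and sums to a fixed total. Nuclear protein-coding genes took 28.1% of that total in replicate 1 and 19.3% in replicate 2, so most TPM values here were lower in replicate 2. TPM was lower there for 31 of the 34 genes and higher for 3. Of the 21461 coding genes, 13467 were lower there and 2774 higher. The median fold of replicate 1 over replicate 2 was 1.43 over the detected members and 1.44 over detected coding genes. Errors on TPM (SD, n = 2) include this shared factor, while ratios within a library and ratios of scaled counts do not.

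A level of at least 1 TPM in both libraries was reached by 31 of the 34 genes (91.2%), against 54.6% of all nuclear protein-coding genes. The exceptions were Pdk4, Adm and Car9. The median of the members' mean TPM was 23.6, against 2.07 over coding genes, and the median of log2(mean TPM + 0.1) was 4.56 against 1.12. Library by library the members' median was 27.4 TPM in replicate 1 and 20.05 TPM in replicate 2. Together the 34 genes held 0.938% and 0.964% of the TPM of coding genes in replicates 1 and 2. In a bulk tissue, fewer cells of a type and less RNA per cell cannot be told apart.

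**Figure D1:**
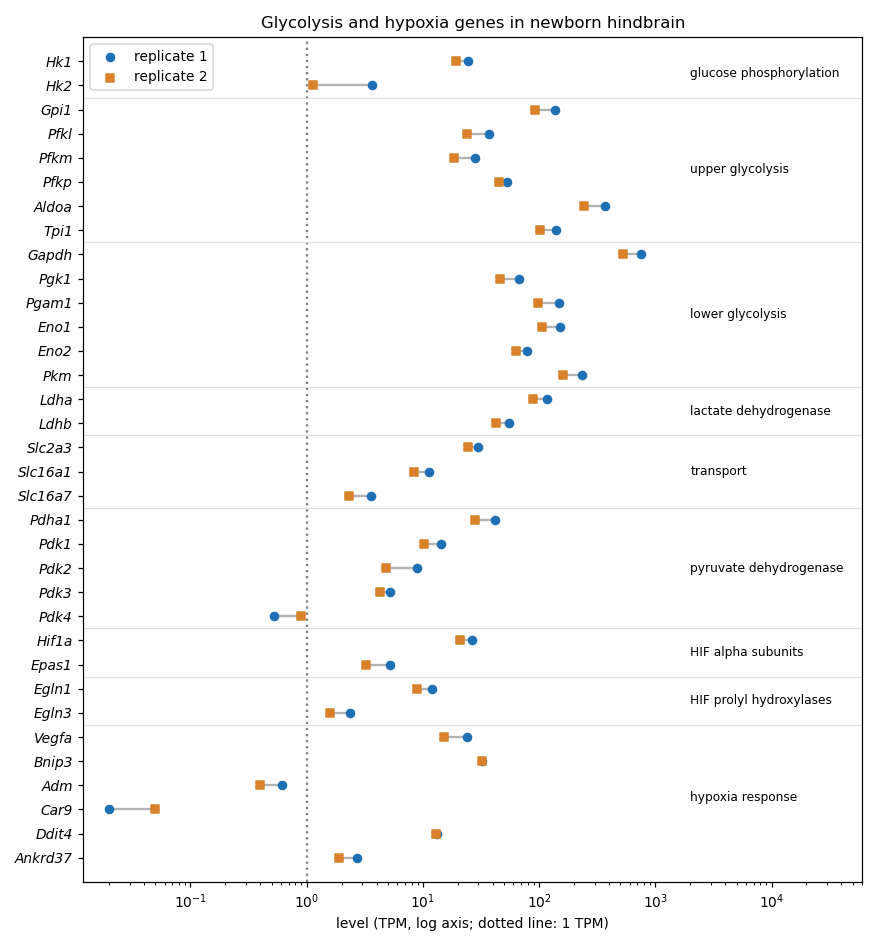
Level of each of the 34 genes in TPM (log axis) in replicate 1 (circles) and replicate 2 (squares), grouped by role, with grey lines joining the 2 libraries. Gapdh lies highest at 756 and 525 TPM, and Pdk4, Adm and Car9 lie left of the dotted line at 1 TPM.

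Glucose phosphorylation stood low among the enzyme steps of the pathway, and glucose entry is given beside it. Slc2a3, the neuronal glucose transporter GLUT3, had 30.0 TPM in replicate 1 and 24.6 TPM in replicate 2. Hk1, the hexokinase typical of brain (chr10:62268855-62379908, minus strand, mm10), had 24.5 and 19.2 TPM in the same order of libraries. Hk2, the hexokinase of muscle and of many growing cells, had 3.62 and 1.14 TPM. The Hk1 values lay above the Hk2 values in both libraries, 6.76-fold in replicate 1 and 16.8-fold in replicate 2, and Hk1 made up 90.7 ± 5.14% of the sum of both genes. The wide spread belonged to Hk2, whose rounded counts of 405 and 615 differed by a log2 ratio of only 0.09 after scaling. Its effective length was 1366 nt in replicate 1 and 3269 nt in replicate 2, with 64.7 and 18.0 counts assigned to the 594 nt processed transcript Hk2-202. The protein-coding transcripts of Hk2 summed to 0.800 TPM in replicate 1 and 0.770 TPM in replicate 2.

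In the upper part of the pathway, before the 3-carbon stage, Aldoa led. Aldoa, which cleaves fructose 1,6-bisphosphate, had 367 TPM in replicate 1 and 242 TPM in replicate 2 and ranked 57th among coding genes. Gpi1, the glucose phosphate isomerase, had 137 and 92.3 TPM, and Tpi1, which interconverts the 2 triose phosphates, had a mean of 121 ± 28.3 TPM. These 3 genes each exceeded every phosphofructokinase gene in both libraries. By gene totals Pfkp, the platelet-type phosphofructokinase, had 53.0 and 45.6 TPM, Pfkl, the liver type, 36.8 and 23.9 TPM, and Pfkm, the muscle type, 28.3 and 18.4 TPM. Pfkl exceeded Pfkm by 1.30-fold in each library, and Pfkp exceeded Pfkm by 2.15-fold on the geometric mean, while the 1.66-fold gap between Pfkp and Pfkl was within 3 SD.

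The order of the phosphofructokinases turned over when protein-coding transcripts alone were summed. Pfkp (chr13:6579768-6648777, minus strand, mm10) had most of its TPM on transcripts that the annotation calls retained-intron. Pfkp-212, of 4663 nt, had 18.2 and 18.0 TPM, Pfkp-210 had 15.1 and 12.7 TPM and Pfkp-202 had 9.93 and 7.85 TPM in replicates 1 and 2. Its leading coding transcript, Pfkp-207, had 5.05 and 3.25 TPM, and all its coding transcripts together had 6.47 and 3.45 TPM, which was 12.2% and 7.57% of the gene. Coding transcripts of Pfkl summed to 36.8 and 23.9 TPM and those of Pfkm to 28.3 and 18.4 TPM. On that scale the log2 ratio of Pfkm over Pfkp was 2.27 ± 0.21, against −1.11 ± 0.28 for gene totals (SD, n = 2). This coding-only sum was chosen after the data were seen.

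Lower glycolysis, where ATP and pyruvate are made, held Gapdh, the highest gene of the list, beside genes of lower level. Gapdh, which oxidises glyceraldehyde 3-phosphate (chr6:125161715-125166467, minus strand, mm10), had 756 TPM in replicate 1 and 525 TPM in replicate 2, ranking 21st among coding genes. Gapdh exceeded Aldoa, the next of the list, in both libraries by a mean log2 ratio of 1.08 ± 0.05. Pgk1, the ATP-forming phosphoglycerate kinase, was the lowest of this stretch at 67.2 and 45.8 TPM. Pgam1, a phosphoglycerate mutase, had 148 and 97.8 TPM, and Pkm, the pyruvate kinase gene of brain and muscle, had 234 and 162 TPM. Gapdh and Aldoa were the 2 members among the 100 highest coding genes. Eno1, the enolase of most tissues, had 151 and 106 TPM, and Eno2, the neuron-specific enolase, had 78.1 and 63.3 TPM. Eno1 exceeded Eno2 by 1.93-fold and 1.67-fold, with Eno2 at 35.8 ± 2.35% of the pair. Eno2 was spread over 15 transcripts, of which coding ones summed to 58.0 and 46.4 TPM.

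Summed by enzymatic step, with the other measured genes of each step included, transcript levels were uneven along the pathway. Hexokinase was lowest at 26.7 ± 7.04 TPM, then phosphoglycerate kinase at 56.5 ± 15.1 TPM and phosphofructokinase at 103 ± 21.3 TPM. These sums use gene totals, which include non-coding transcripts. Pfkp gave a mean of 49.3 TPM of the phosphofructokinase sum, with 4.96 TPM on its coding transcripts. Glyceraldehyde phosphate dehydrogenase was highest at 640 ± 163 TPM, followed by aldolase at 495 ± 134 TPM. Aldoc, the aldolase of brain, gave 223 TPM in replicate 1 and 158 TPM in replicate 2 of the aldolase sum. Enolase and pyruvate kinase stood at 203 ± 44.4 and 198 ± 51.0 TPM.

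**Figure D2:**
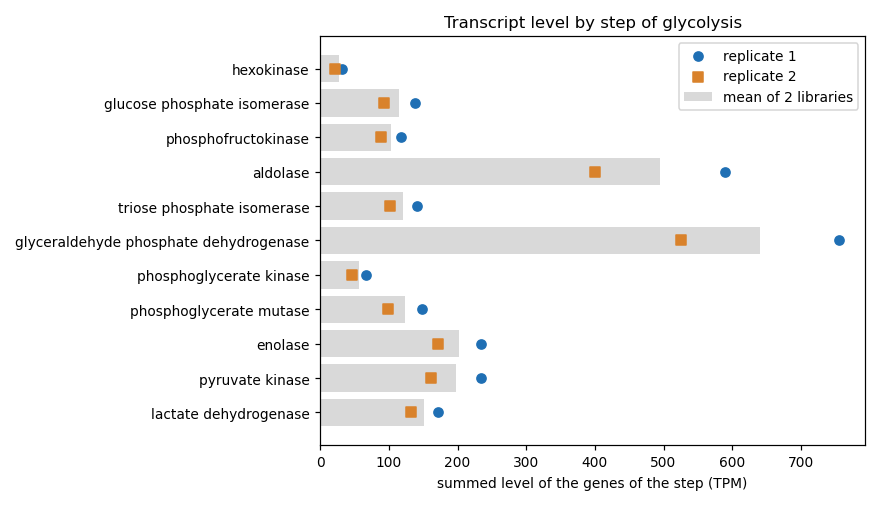
Summed TPM of all measured genes of each step of glycolysis, from hexokinase at the top to lactate dehydrogenase at the bottom, as the mean of 2 libraries (bars) with each library (points). The bar of glyceraldehyde phosphate dehydrogenase reaches 640 TPM and that of hexokinase 26.7 TPM. Gene totals are shown, non-coding transcripts included.

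Pkm makes the M1 and M2 enzymes from a pair of mutually exclusive exons. M2 is the allosterically regulated form of embryonic and dividing cells, and M1 the constitutively active form of adult brain and muscle. Both exons have 167 nt, lie on the plus strand of chromosome 9 and are exon 9 of 11 in their transcripts, M1 at chr9:59675029-59675195 and M2 at chr9:59675568-59675734 (mm10). Their bases are identical at 103 of 167 positions (61.7%). The exons are printed because the isoform values rest on the reads that tell them apart, with capitals at the 64 positions where they differ.
Pkm M1 exon: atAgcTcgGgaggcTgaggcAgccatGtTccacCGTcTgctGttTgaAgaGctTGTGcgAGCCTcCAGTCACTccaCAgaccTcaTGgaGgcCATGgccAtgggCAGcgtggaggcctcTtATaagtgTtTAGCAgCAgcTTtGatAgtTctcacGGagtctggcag
Pkm M2 exon: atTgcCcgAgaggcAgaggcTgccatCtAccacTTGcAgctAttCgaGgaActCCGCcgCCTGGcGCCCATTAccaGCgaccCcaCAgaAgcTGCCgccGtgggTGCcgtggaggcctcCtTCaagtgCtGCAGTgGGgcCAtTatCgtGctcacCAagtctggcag
The M1 transcript, Pkm-202, had 128 TPM in replicate 1 and 82.5 TPM in replicate 2. The M2 transcript, Pkm-201, had 106 and 79.3 TPM. M2 thus held 45.2% and 49.0% of Pkm, a mean of 47.1 ± 2.68% (SD, n = 2), and M1 the larger share in both libraries. The deposited intervals of the transcripts, whose level is not stated, did not overlap in replicate 1 (124 to 129 TPM for M1 and 102 to 107 TPM for M2) or in replicate 2 (80.7 to 83.4 and 77.6 to 80.3 TPM). Exon positions come from a later annotation release on the same build, in which both transcripts have newer versions.

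The lactate dehydrogenase genes kept nearly the same proportion in both libraries. Ldha, whose subunit is favoured where pyruvate is turned to lactate, had 117 TPM in replicate 1 and 89.4 TPM in replicate 2. Ldhb, the heart-type subunit, had 54.6 and 42.4 TPM. Ldha exceeded Ldhb by 2.14-fold and 2.11-fold and held 68.0 ± 0.253% of the pair. Both genes had almost all of their TPM on 1 transcript, 98.8 ± 0.212% for Ldha and 99.2 ± 0.552% for Ldhb.

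Of the lactate and pyruvate transporters, Slc16a1 (MCT1) had 11.2 TPM in replicate 1 and 8.31 TPM in replicate 2. Slc16a7 (MCT2), the high-affinity carrier of neurons, had 3.57 and 2.33 TPM. Slc16a1 was higher in each library, by 3.14-fold and 3.57-fold, and held 77.0 ± 1.60% of the pair. Among 16 other sugar and lactate transport genes, 9 reached 1 TPM in both libraries, and Slc2a2, a liver and pancreas glucose transporter, had 0 counts (3 counts would be 0.0232 TPM in replicate 1 and 0.0114 TPM in replicate 2). The highest of these were Bsg, the chaperone of MCT1 (267 ± 66.3 TPM), Slc2a1, the GLUT1 of the blood-brain barrier and glia (36.0 ± 9.77 TPM), and Slc2a8 (9.26 ± 1.99 TPM).

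**Figure D3:**
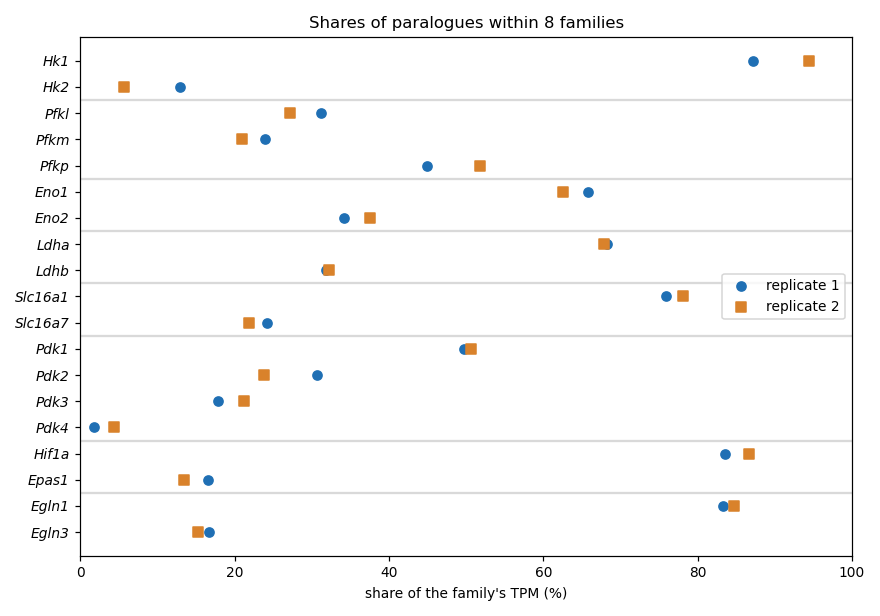
Share of each gene in the summed TPM of its family (percent) in replicate 1 (circles) and replicate 2 (squares), with lines between the 8 families. Ldha lies at 68.2% in replicate 1 and 67.8% in replicate 2, and Hk2 at 12.9% and 5.62%.

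At the entry of pyruvate into mitochondria, Pdha1, the catalytic α subunit of pyruvate dehydrogenase, had 41.8 TPM in replicate 1 and 27.9 TPM in replicate 2. Its inhibitory kinases were all lower. Pdk1, the HIF-responsive kinase, had 14.5 and 10.2 TPM, Pdk2 8.90 and 4.80 TPM, Pdk3 5.18 and 4.29 TPM, and Pdk4, the kinase of fasting muscle and heart, 0.520 and 0.890 TPM. Pdk1 held 50.2 ± 0.603% of the kinase TPM and lay above each of the others, 1.86-fold over Pdk2, 2.58-fold over Pdk3 and 17.9-fold over Pdk4 on the geometric mean. Pdk2 exceeded Pdk3 by 1.72-fold and 1.12-fold and Pdk4 by 17.1-fold and 5.39-fold in replicates 1 and 2, both within 3 SD. The gap between Pdk2 and Pdk4 passed 3 SD with posterior means, with counts and with coding transcripts alone (log2 ratios of 3.01 ± 0.88, 3.10 ± 0.01 and 3.78 ± 0.17). The Pdk2 values varied with transcript assignment, since its coding transcript Pdk2-201 held 58.0% of the gene in replicate 1 and 86.9% in replicate 2. The Pdk4 level in replicate 2 rested mostly on 11.8 of its 161 counts, which the tables assign to the 412 nt retained-intron transcript Pdk4-202 at 0.610 TPM. Of 11 other genes of pyruvate entry, 10 were detected at 1 TPM in each library, with the highest being the carrier subunits Mpc1 (119 ± 37.5 TPM) and Mpc2 (33.9 ± 9.88 TPM) and Pdhb (28.7 ± 5.71 TPM). The testis gene Pdha2 had 0 counts (3 counts would be 0.0180 TPM in replicate 1 and 0.00883 TPM in replicate 2).

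Hif1a, the widely used oxygen-labile subunit, exceeded Epas1, the HIF-2α gene known for endothelial and perivascular use. Hif1a (chr12:73901375-73947530, plus strand, mm10) had 26.6 TPM in replicate 1 and 20.9 TPM in replicate 2, and Epas1 had 5.25 and 3.23 TPM. The ratio was 5.07-fold and 6.48-fold, and Hif1a held 85.1 ± 2.21% of the pair. Short transcripts took part of the Hif1a total in a different way in each library. Hif1a-204, a retained-intron transcript, had 3.40 and 0.530 TPM, and Hif1a-205, a processed transcript, had 0 and 4.41 TPM. Coding transcripts of Hif1a summed to 23.2 and 16.0 TPM. HIF abundance is set largely at the protein level, which these RNA values do not measure.

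Of the prolyl hydroxylases that mark HIF-α for destruction, Egln1 (PHD2) had 11.9 TPM in replicate 1 and 8.83 TPM in replicate 2. Egln3 (PHD3) had 2.38 and 1.59 TPM. Egln1 was 4.99-fold and 5.55-fold higher, with 84.0 ± 1.01% of the pair. All 14 other genes of the HIF pathway that were measured reached 1 TPM in both libraries. The highest were Elob, an adaptor of the VHL ubiquitin ligase (138 ± 12.1 TPM), Ubqln1 (34.1 ± 11.3 TPM) and Egln2, the PHD1 hydroxylase (27.4 ± 7.03 TPM).

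The hypoxia-response genes covered the widest range of the list. Bnip3, a mitophagy receptor, had 32.1 TPM in replicate 1 and 32.5 TPM in replicate 2, Vegfa, the endothelial growth factor, had 23.9 and 15.3 TPM, and Ddit4, an inhibitor of mTORC1, had 13.3 and 13.0 TPM. Ankrd37, a small ankyrin-repeat gene, had 2.69 and 1.90 TPM, Adm, the vasodilator adrenomedullin, had 0.61 and 0.40 TPM, and Car9, a carbonic anhydrase induced by hypoxia in tumours, had 0.0200 and 0.0500 TPM. Bnip3, Vegfa and Ddit4 were thus above the 1 TPM limit by more than 10-fold in both libraries, while Adm rested on 53 and 72 counts and Car9 on 2 and 12. For Car9 the deposited interval, from 0.162 to 1.93 TPM in replicate 1, did not include the deposited TPM, so its level is uncertain. Of 24 other HIF target genes, 21 were detected at 1 TPM in each library, with the highest being the demethylase gene Kdm4b (32.9 ± 7.62 TPM), the mitophagy receptor gene Bnip3l (26.4 ± 9.62 TPM) and the transferrin receptor gene Tfrc (12.3 ± 3.97 TPM). Epo, the erythropoietin gene, had 0 counts (3 counts would be 0.0823 TPM in replicate 1 and 0.0392 TPM in replicate 2).

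Promoters were searched for the core of the hypoxia response element, the letters ACGTG or GCGTG on either strand. Overlapping matches, such as CACGTG, which reads as ACGTG on both strands, counted once. RefSeq promoters (GRCm38.p6, 250 bases before to 50 after each start) gave 44 windows for 31 of the genes, none for Slc2a3, Slc16a7 and Epas1. The core stood in 34 of the 44 windows (77.3%), against 43.8% of all 32851 windows. The members' windows also had a median of 20.5 CG dinucleotides against 7 over all windows, and of the 8148 windows with at least that many, 74.0% held the core. ACGTG alone was in 22 of the 44 windows, against 19.6% of all windows and 29.0% of the CG-rich ones. Some windows of the same gene overlap and share a match, as in Aldoa. By gene, the core stood in 28 of 31 members, against 46.7% of all genes with a window. ACGTG alone stood in 20, against 21.8%. A gene counted when any of its windows held a match, and members had 44 windows for 31 genes, against 32851 for 27025 genes. A comparison with CG-rich promoters, or with genes of as many windows, was not made by gene. A match describes letters and does not show binding.

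Promoters of 3 genes induced through HIF in other systems are printed to show where the core lies, each as the 250 bases before the start, with capitals at every match. Ldha (chr7:46845554-46845803, plus strand) held 3 separate matches in this stretch, Pgk1 (chrX:106186850-106187099, plus strand) held 2, and Bnip3 (chr7:138909507-138909756, minus strand) held 4.
Ldha promoter: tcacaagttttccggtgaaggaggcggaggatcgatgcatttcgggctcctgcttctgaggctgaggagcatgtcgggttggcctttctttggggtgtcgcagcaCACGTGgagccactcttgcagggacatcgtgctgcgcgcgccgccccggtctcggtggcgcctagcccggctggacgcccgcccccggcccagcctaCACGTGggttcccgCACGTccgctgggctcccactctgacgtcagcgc
Pgk1 promoter: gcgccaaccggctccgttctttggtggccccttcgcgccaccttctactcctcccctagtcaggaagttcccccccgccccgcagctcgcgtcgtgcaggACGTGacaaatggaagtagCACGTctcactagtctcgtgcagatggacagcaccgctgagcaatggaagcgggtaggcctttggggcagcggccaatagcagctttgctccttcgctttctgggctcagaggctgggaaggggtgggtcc
Bnip3 promoter: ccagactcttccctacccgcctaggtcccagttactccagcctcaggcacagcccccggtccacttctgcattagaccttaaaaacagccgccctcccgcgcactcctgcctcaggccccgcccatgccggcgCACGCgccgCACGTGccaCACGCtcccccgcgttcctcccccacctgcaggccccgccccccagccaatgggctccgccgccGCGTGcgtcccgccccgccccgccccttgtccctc
These genes had 103 ± 19.6, 56.5 ± 15.1 and 32.3 ± 0.283 TPM in the order printed. Promoters of Gpi1, Tpi1 and Eno2 held no match in their windows although these genes had 115 ± 31.9, 121 ± 28.3 and 70.7 ± 10.5 TPM.

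Ordered by mean TPM, neighbours in the list of 34 were often not separated by the 3 SD rule. Of 33 neighbouring pairs, 10 differed by more than 3 SD of their log2 ratio within libraries and 23 did not. With 2 libraries the rule depends on the SD as well as on the gap. Adm over Car9, with log2 ratios of 4.93 and 3.00 in replicates 1 and 2, did not pass. Egln1 over Slc16a1, with 0.084 and 0.088, did. At the top the order Gapdh, Aldoa, Pkm, Eno1 was separated at each step, while Eno1, Pgam1, Tpi1, Gpi1 and Ldha followed each other without such a gap. Within families, 12 of 15 pairs of paralogues were apart by more than 3 SD. For neither count was a share taken over other pairs of genes.

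Most members were carried by coding transcripts, with a few exceptions. Over the 31 detected members the median share of the main transcript was 86.8%, against 83.9% over detected coding genes. By the mean of both libraries the main transcript was coding for 30 of all 34 genes, a share not taken over coding genes. For Adm this was a tie, with Adm-201 at 100% in replicate 1 and 0% in replicate 2. For Pdk4 the retained-intron Pdk4-202 was highest in replicate 2, at 68.5%. Coding transcripts held under 50% of the mean TPM share in 4 of 31 detected members, against 6.72% of detected coding genes. These were Hk2, Pfkp, Vegfa and Ankrd37. By replicate 1 alone there were 4 (7.36% of coding genes) and by replicate 2 alone 2 (7.71% of coding genes), Pfkp and Vegfa, since coding transcripts held 67.5% of Hk2 and 91.1% of Ankrd37 there. In Vegfa coding transcripts had 11.4 TPM in replicate 1 and 6.58 TPM in replicate 2, or 47.6% and 43.0% of the gene, with the coding Vegfa-202 highest at 7.49 and 4.44 TPM. The highest transcript differed between libraries in 2 of 25 detected members with several transcripts, Hk2 and Ankrd37, against 19% of such genes. For Ankrd37 these were Ankrd37-205, a transcript marked for nonsense-mediated decay, with 2.65 TPM in replicate 1 and 0.0200 TPM in replicate 2, and the coding Ankrd37-201, with 0 and 1.73 TPM. In Pgk1 the decay transcript Pgk1-203 took 8.57% of the gene in replicate 1 and 28.1% in replicate 2. Transcript classes come from a later annotation than the one used for counting, and whether such short or intron-holding models were real or assigned reads was not tested.

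**Figure D4:**
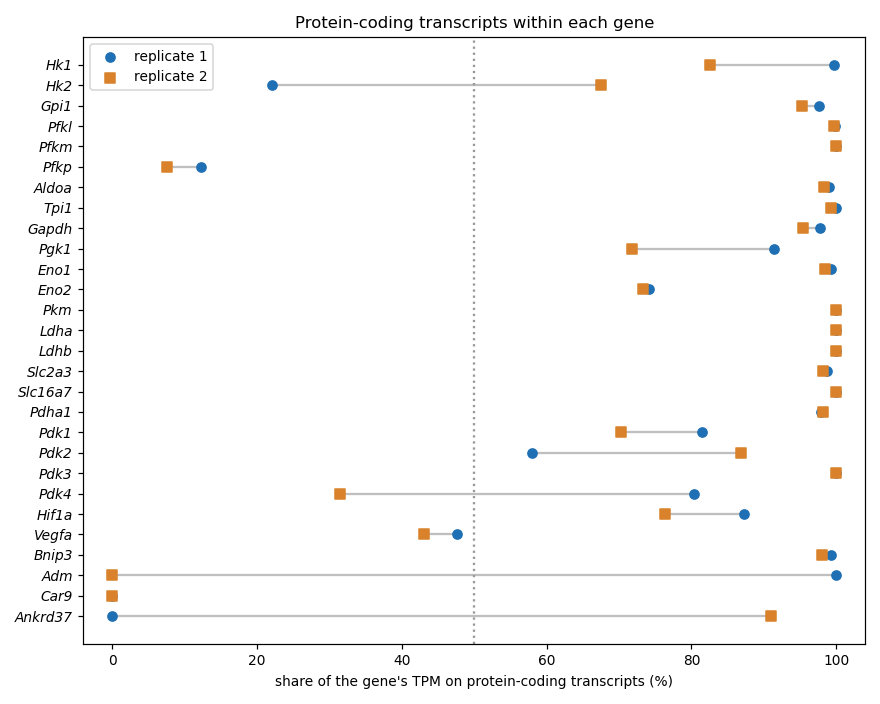
Share of the gene's TPM on protein-coding transcripts (percent) for the members with more than 1 transcript, in replicate 1 (circles) and replicate 2 (squares), with a dotted line at 50%. Pfkp lies at 12.2% and 7.57%, while Ldha, Ldhb and Pkm lie at the right edge.

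Counts of most members differed little between the libraries once scaled to library size. The log2 ratio of replicate 2 over replicate 1 had a median of 0.03 over the 33 members whose counts averaged 10 or more, and ranged from −0.19 for Epas1 to 0.48 for Ddit4. None of the 33 was past 1.5-fold, against 24.3% of all genes with such counts. Most members had high counts, and at a mean count of at least 500, a limit chosen after the data were seen, 0 of 30 members were past it against 4.17% of coding genes. Among these the median absolute log2 ratio was 0.08 for members and 0.15 for coding genes. Ddit4 had 1494 and 2973 counts in replicates 1 and 2, Bnip3 had 3067 and 5579 (log2 ratio 0.35) and Pfkp had 10924 and 19473 (0.32). For Bnip3 and Ddit4 the small SD of TPM therefore does not mean close counts. The ratios of Ddit4, Bnip3 and Pfkp lay above the 95th percentile of coding genes in their bins of count (0.45, 0.27 and 0.15). With spike-in totals as the scale every ratio was 0.10 higher.

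**Figure D5:**
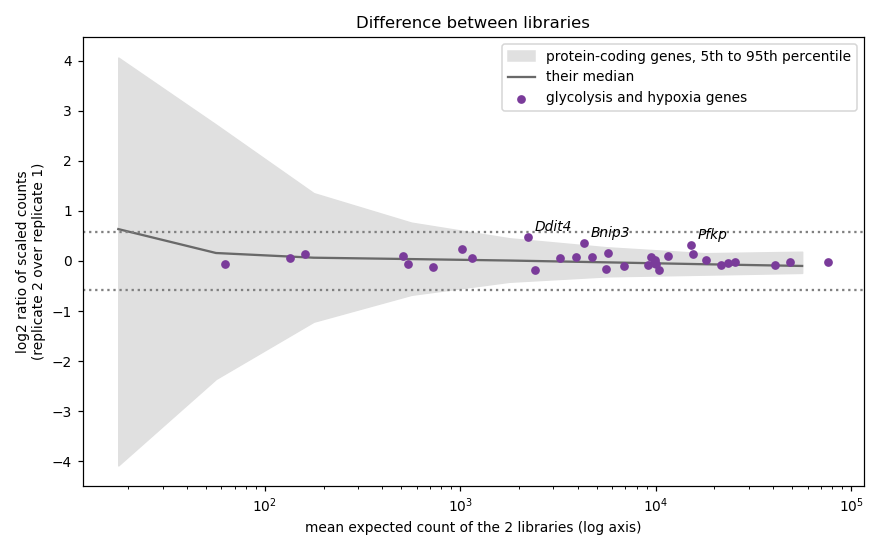
Log2 ratio of scaled counts, replicate 2 over replicate 1, against mean expected count (log axis) for the members whose counts averaged 10 or more (points), with the 5th to 95th percentile of coding genes in bins of count (grey) and dotted lines at 1.5-fold. Every point lies between the dotted lines, and Ddit4, Bnip3 and Pfkp, labelled, are the 3 highest at 0.48, 0.35 and 0.32. These 3 lie above the grey band.

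Markers of other tissues did differ between the libraries. In scaled counts all 6 skeletal muscle markers were past 1.5-fold lower in replicate 2, with a median log2 ratio of −2.43. Among all genes whose counts averaged 10 or more, 9.74% were past 1.5-fold lower. The muscle markers summed to 56.7 TPM in replicate 1 and 6.06 TPM in replicate 2. They ran from Acta1 (36.0 and 3.98 TPM) to Myh3 (0.840 and 0.210 TPM). The 6 erythroid genes summed to 938 and 854 TPM, with a median log2 count ratio of 0.50, led by Hba-a2 (490 and 385 TPM). Neuronal markers summed to 1572 and 1052 TPM (5 of 5 detected, Tubb3 highest at 910 ± 260 TPM and Rbfox3 lowest at 12.02 ± 2.75 TPM), astrocyte and radial glia markers to 405 and 273 TPM (5 of 5, Fabp7 at 172 ± 52.1 and Gfap at 21.1 ± 1.39 TPM) and endothelial markers to 79.8 and 50.7 TPM (6 of 6, Cldn5 at 44.9 ± 14.3 and Tek at 1.83 ± 0.728 TPM). Of these neuronal, glial and endothelial markers 0 were past 1.5-fold in scaled counts. All of them had a mean count of at least 500, where 4.17% of coding genes were past it. Of the 8 hindbrain markers, 2 were past 1.5-fold higher in replicate 2 and 0 past 1.5-fold lower, with a median log2 ratio of 0.03. The 2 were Atoh1 and Pcp2, with log2 ratios of 1.03 and 0.65. Among all genes whose counts averaged 10 or more, 14.6% were past 1.5-fold higher. The part of muscle or blood in the members' values was not tested.

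Among 22 other glycolysis genes, 10 reached 1 TPM in both libraries, with Aldoc (190 ± 46.2 TPM), the phosphoglucomutase gene Pgm1 (29.3 ± 7.47 TPM) and the red-cell enzyme gene Bpgm (9.10 ± 1.15 TPM) highest. Gapdhs and Pgk2, the sperm forms, and Pklr, the liver and red-cell pyruvate kinase, had 0 counts, where 3 counts would be at most 0.0429 TPM. Of the 18 with a mean count of at least 10, 2 were past 1.5-fold higher and 3 past 1.5-fold lower in replicate 2, against 14.6% and 9.74% of all such genes. The corresponding counts were 1 and 1 of 14 for transport, 0 and 0 of 10 for pyruvate entry, 1 and 0 of 14 for the HIF pathway and 3 and 1 of 23 for HIF targets. The single HIF pathway gene was Elob, with 2067 counts in replicate 1 and 5165 in replicate 2 (log2 ratio 0.81).

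Some levels carry an uncertainty of read assignment. The 6 members Gapdh, Pgk1, Pgam1, Eno1, Gpi1 and Bnip3 had a posterior SD of the count above 0, which marks reads shared with other genes, though at most 0.575% of the count. The deposited interval left out the TPM in at least 1 library for Hk1, Aldoa, Pkm and Car9, for Hk1 with 24.5 TPM against 25.3 to 52.0 TPM in replicate 1. Exons of 13 members overlap an exon of a gene on the opposite strand, a share not taken over coding genes. Among them are Pfkm with Senp1, Pfkp with Pitrm1 and Aldoa with Fam57b, and the use of strand in counting is not stated. On the same strand, exons of Pfkm overlap Gm26513, those of Pkm Gm49759 and those of Hif1a Gm49321. A transcript that the later annotation gives to Aldoa stands under another deposited gene and was not added to it.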

How the data were processed

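Total RNA was measured in 2 libraries of newborn hindbrain, numbered as in the labels. The authors deposited a gene and a transcript table per library, on build mm10 with GENCODE M4 per the deposited file notes, and no source used here names the aligner or quantifier. The columns, per the file headers, are deposited expected counts, which are estimates that can hold fractions of a read, deposited TPM values (also as posterior means) which are counts per effective length scaled to a fixed sum, and deposited percent values of each transcript within its gene. The deposited interval bounds and posterior SD were treated as signal values.

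Symbols, transcript classes and exons came from GENCODE M21 on the same build, matching 42462 of 43346 genes and 190 of 191 member transcripts. Promoters came from RefSeq, GRCm38.p6. For log2 ratios between libraries, rounded expected counts were scaled with edgeR 4.0.16 (R 4.3.3) by TMM with a prior count of 2 and a minimum mean count of 10. DESeq2 1.42.0 size factors, library totals and spike-ins were alternatives. Spike-ins, phiX and rows without a mouse gene were left out of library sizes, leaving 53617723 and 76299141 counts. Paralogues were called apart when the mean log2 TPM ratio within libraries exceeded 3 SD. Floors for genes at 0 are 3 counts, and cover counting error only. Members and lists were chosen with earlier results of these data known. All members are named, and of each pathway list the 3 highest and those at 0 counts, and of each cell type list the highest and the lowest, of which some are withheld and not reported here.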

Additional observations from a re-analysis of the deposited data

How the results depend on the processing

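The count of 31 detected members was 31 in either library alone and with posterior means, 33 with TPM rescaled over coding genes, 32 and 28 at limits of 0.5 and 2 TPM, and 29 with coding transcripts alone. The median log2 level of 4.56 was 4.33 to 4.78 in single libraries, 4.69 with posterior means, 4.56 and 4.62 with pseudocounts of 0.01 and 1, 4.32 with coding transcripts alone and 6.65 after rescaling, which by construction multiplies every level. The 12 paralogue pairs apart became 13 with posterior means, 13 with counts not divided by length, 14 at 2 SD and 14 with coding transcripts alone. A single library gives no SD and hence no such count. With coding transcripts alone Pfkm over Pfkp had a log2 ratio of 2.27 against −1.11, Pfkl over Pfkp 2.65 against −0.73, and Pdk2 over Pdk3 −0.02 against 0.47. Pdk2 over Pdk4 passed 3 SD with posterior means, counts and coding transcripts. The median log2 ratio between libraries of 0.03 was 0.03 with DESeq2 size factors, total counts or no filter and 0.13 with spike-ins. The 0 members past 1.5-fold stayed at 0 in every scaling and became 1, Car9, without the filter. With spike-ins Ddit4 lay only just under this limit, which is 0.58 in log2. The M2 share of Pkm was 45.2% to 49.0% in single libraries. The median main transcript share of 86.8% was 91.2% to 91.4% when taken within 1 library, where the highest transcript of that library counts, and 86.6% with posterior means. The 4 members with coding transcripts under 50% of TPM were 2 to 4 in single libraries. This and the settings with coding transcripts alone were chosen after the data were seen.

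No paired analysis was possible because the libraries form 1 group. The exact sign-flip test over 2 libraries has a smallest p of 0.5. Depth limits Adm and Car9 (under 100 counts each), and TPM of genes with short non-coding transcripts depends on a few counts divided by short lengths.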
